A study of Mus musculus with 7 samples.

Results

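The annexins of aged mouse skin were followed by messenger RNA level in dorsal skin treated topically with ABT-263 or with its vehicle, DMSO. The 10 members, Anxa1 to Anxa9 and Anxa11, are the annexin genes expressed in skin, taken by symbol from a table of 55450 genes, and all 10 passed the expression filter and were tested. The remaining annexin genes in the table, Anxa10 and Anxa13, had 0 counts in every mouse. All mice were male C57BL/6, aged 24 months and without a genetic change. Dorsal hair was clipped and stripped with Nair, the skin was wiped with ethanol, and 5 µM ABT-263 or DMSO alone was laid on it under a Tegaderm dressing for 5 days. There were 4 mice given DMSO (numbered 480 to 483) and 3 given ABT-263 (476 to 478), with 1 library of polyA RNA per mouse. ABT-263, or navitoclax, blocks the anti-apoptotic proteins Bcl-2, Bcl-xL and Bcl-w and is used to kill senescent cells. Whole skin was homogenized, so the libraries hold all of its cell types, and fewer cells of a type and less RNA per cell cannot be told apart.

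Annexins are cytosolic proteins that bind, when calcium rises, to membrane lipids with a negative charge, above all phosphatidylserine. They link membranes to each other and to the cell cortex, help to reseal torn plasma membrane, and pair with small S100 proteins. Phosphatidylserine moves to the outer face of dying cells, where added Anxa5 protein is the usual stain for apoptosis, and in stratified epithelium Anxa1, Anxa2 and Anxa8 are known as keratinocyte proteins.

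Total counts lay between 20344364 and 26824123 in the DMSO libraries and between 27325963 and 43562330 in the ABT-263 libraries, so every ABT-263 library was the larger. Markers of the labelled tissue were present in each library: 5 basal keratinocyte markers summed to between 13320 and 34817 CPM, the count of a gene scaled to the total of its library and by the TMM factors of edgeR. Markers of skeletal muscle were present as well, at 25077 to 33481 CPM after ABT-263 and 32510 to 65665 CPM after DMSO. Hair follicle markers summed to 2187 CPM in DMSO mouse 481 and to at most 22.4 CPM in the other DMSO mice. They summed to 416.7 CPM in ABT-263 mouse 478 and to at most 5.52 CPM in mice 476 and 477.

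Of the 10 annexins, 4 rose after ABT-263 and none fell at an adjusted p under 0.05 (edgeR quasi-likelihood test, adjusted over the 17959 genes tested). Over all genes tested, 24.2% passed this threshold, 12.4% as higher and 11.7% as lower. The risers were Anxa11 (6.04-fold), Anxa3 (2.39-fold), Anxa1 (2.09-fold) and Anxa7 (1.41-fold). Anxa2 and Anxa8, the most abundant annexins in the vehicle-treated skin, gave no call. The list's median log2 fold change was 0.38 against 0.00223 over all genes tested, and 7 of 10 members had a positive one, against 50.1% of all genes. Without adjustment, 5 annexins had p under 0.05 as higher and 0 as lower. For unadjusted p, here and in the lists below, no share over all genes was taken. These counts therefore cannot be read as particular to the annexins or to any list. The DESeq2 Wald test called 5 annexins higher and 0 lower, where it called 25.9% of 21822 genes, 13.6% as higher. The ABT-263 mice lay wholly above the DMSO mice for 5 annexins and wholly below them for none. Over all genes tested, 37.1% had groups apart, 18.7% with ABT-263 above and 18.4% with ABT-263 below.

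Levels of different genes were compared per length, as CPM divided by kilobases of annotated exon (RPKM). In vehicle-treated skin the order from the top was Anxa2, Anxa8, Anxa5, Anxa1, Anxa6, Anxa7, Anxa9, Anxa4, Anxa3 and Anxa11. Anxa2 stood at 444 ± 82.7 RPKM (SD, n = 4) and Anxa11 at 1.45 ± 0.33 RPKM, so the ends of the family lay 306-fold apart in mean level. Part of Anxa11 is copied elsewhere (below), so its level may be understated and this distance overstated. Above Anxa3, the second lowest, Anxa2 lay 105-fold. Neighbours in this order had overlapping ranges at 4 places: Anxa5 with Anxa1, Anxa1 with Anxa6, Anxa7 with Anxa9, and Anxa9 with Anxa4. Within single mice, Anxa5 was above Anxa1 and Anxa9 above Anxa4 in all 4. Anxa7 was above Anxa9 in 3 of 4 mice, and Anxa1 above Anxa6 in 2 of 4. At the other steps the ranges of the mice were separate, as between Anxa8 at 296 ± 36.5 RPKM and Anxa5 at 149.8 ± 25.7 RPKM. The ranges of Anxa2 and Anxa8 came closest, with 335.5 RPKM in the lowest mouse for Anxa2 and 331.4 RPKM in the highest for Anxa8. Dividing by the longest annotated transcript in place of all exons put Anxa1 (176.7 RPKM) above Anxa5 (153.8 RPKM) and left the other places as they were.

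After ABT-263 the order of the mean levels changed at a single place: Anxa1, at 213 ± 5.98 RPKM (SD, n = 3), stood above Anxa5 at 171 ± 6.95 RPKM. The ranges of these genes overlapped after DMSO, though Anxa5 was above Anxa1 in each of the 4 mice, and were separate after ABT-263. This change rests on the length used, since by the longest transcript Anxa1 was already above Anxa5 after DMSO. The other end of the order closed up. Anxa2, at 389 ± 103 RPKM, lay 44.3-fold above Anxa11, at 8.77 ± 3.23 RPKM, and 38.6-fold above Anxa3, at 10.1 ± 2.72 RPKM. The ranges of Anxa11 and Anxa3, apart after DMSO, overlapped. Anxa2 and Anxa8 overlapped as well after ABT-263, as did Anxa8 and Anxa1, and Anxa9 and Anxa4. Within single mice, Anxa2 was above Anxa8 in all 3. Anxa8 was above Anxa1, Anxa9 above Anxa4 and Anxa3 above Anxa11 in 2 of 3 mice each.

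**Figure D1:**
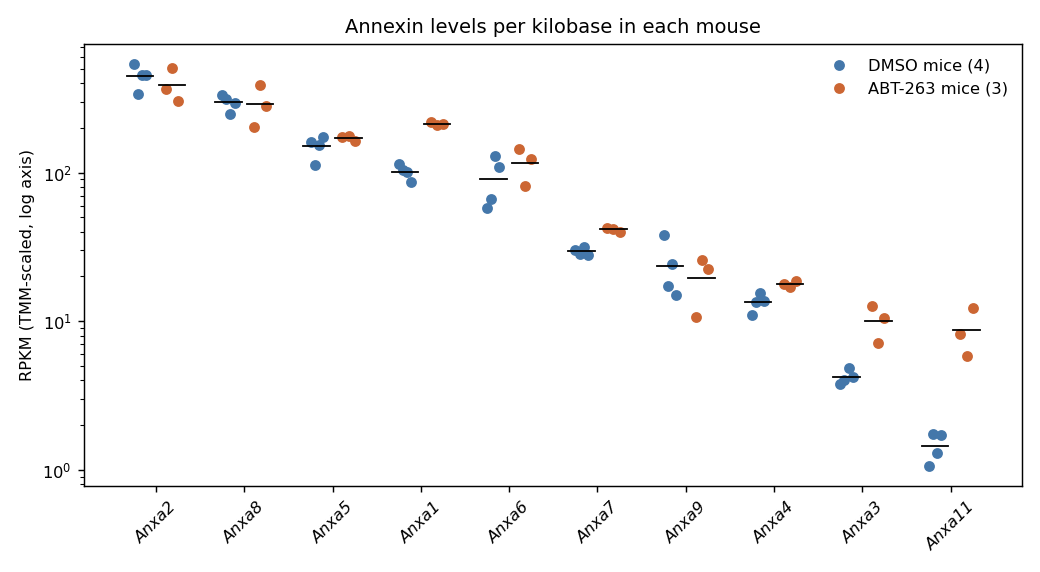
Level of each annexin in each mouse, in RPKM on a log axis, in the order of the means after DMSO. Blue points are the 4 DMSO mice, orange points the 3 ABT-263 mice, and black lines the means; the orange points of Anxa1, Anxa3, Anxa4, Anxa7 and Anxa11 all lie above the blue ones.

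The summed level of the 10 annexins was 1155 ± 118 RPKM after DMSO (SD, n = 4) and 1276 ± 151 RPKM after ABT-263 (SD, n = 3), and the groups overlapped. Within that sum, Anxa1 took 8.93%, 10.4%, 8.71% and 7.40% in DMSO mice 480 to 483 and 18.3%, 14.3% and 17.9% in ABT-263 mice 476 to 478. Every ABT-263 mouse was above every DMSO mouse in this share. Anxa2 took 38.2% ± 3.38 after DMSO and 30.1% ± 4.59 after ABT-263, with overlapping groups, and Anxa8 took 25.8% ± 4.22 and 22.4% ± 4.93, also overlapping. The shares of Anxa3, Anxa7 and Anxa11 were, like that of Anxa1, higher in each ABT-263 mouse than in any DMSO mouse, yet together small, with Anxa11 going from 0.13% ± 0.04 to 0.71% ± 0.32. The 4 annexins most abundant after DMSO made up 82.2% to 89.0% of the sum in DMSO mice and 80.3% to 87.7% in ABT-263 mice.

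**Figure D2:**
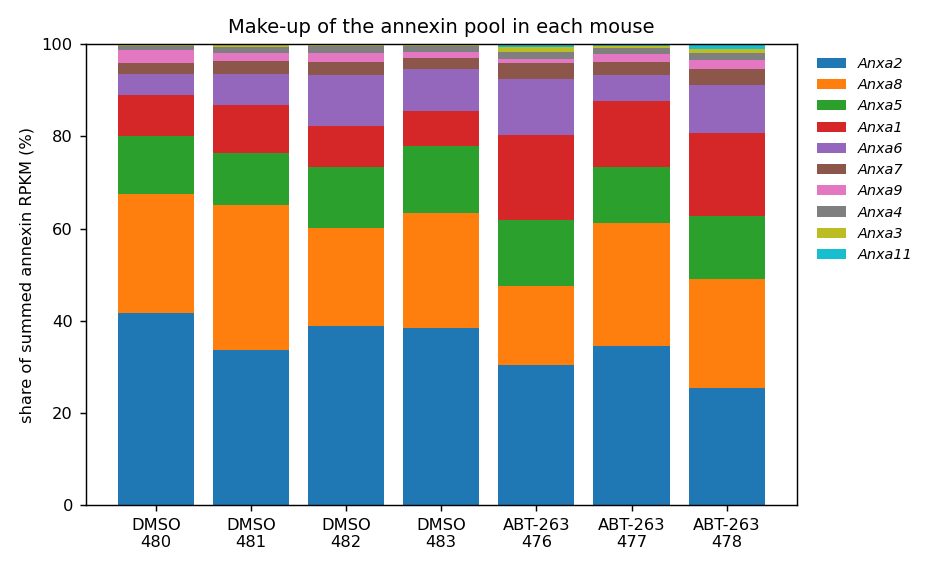
Make-up of the summed annexin RPKM in each mouse, in percent, with the genes stacked from the most abundant after DMSO upward. The band of Anxa1 covers 7.40% to 10.4% in the 4 DMSO mice and 14.3% to 18.3% in the 3 ABT-263 mice.

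Anxa11 (ENSMUSG00000021866, chromosome 14, 25842156 to 25886804 on the plus strand of GRCm38) binds the calcium sensor Pdcd6 and the S100 protein S100a6 and tethers RNA granules to lysosomes in neurons. It was the scarcest member by the read pairs counted and changed by the largest factor. Its level was 4.38, 7.21, 5.34 and 7.07 CPM in DMSO mice 480 to 483 and 34.2, 24.0 and 50.5 CPM in ABT-263 mice 476 to 478. The lowest ABT-263 mouse was thus far above the highest DMSO mouse, although the ABT-263 mice differed among themselves with a coefficient of variation of 36.9%. The log2 fold change was 2.59 ± 0.28 (SE, 4 and 3 mice, edgeR adjusted p = 0.00578). It stayed past the threshold in all 7 fits that left out 1 mouse, at 2.28 to 2.84 with edgeR adjusted p up to 0.0297. The counts behind these values were 104 to 172 after DMSO and 954 to 2353 after ABT-263.

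Part of Anxa11 is copied elsewhere on chromosome 14. The unprocessed pseudogene Gm2260 matches 657 bases of the longest Anxa11 transcript, of 2733 bases, at 100% identity, and Gm2274 matches 609 bases at 99.7%. Both pseudogenes had 0 counts in all 7 mice, as had the copied neighbouring genes Plac9a, Plac9b, Tmem254a, Tmem254b and Tmem254c. Only uniquely aligned read pairs were counted, and a pair that lies wholly within the 100% match aligns equally well to both places, so the level of Anxa11 may be understated in both groups. The part of the copies in its fold change was not tested. Anxa11os, an RNA on the opposite strand that overlaps 2.73% of the exon bases of Anxa11, had 2 counts in ABT-263 mouse 476 and 0 in the other mice. No other member had a near-identical stretch of at least 200 bases at 95% identity in the annotated transcripts of other genes. The rest of the genome was not searched for copies.

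Anxa1 (ENSMUSG00000024659, chromosome 19, 20373428 to 20390944, minus strand), also called lipocortin, is the glucocorticoid-induced annexin that damps inflammation through formyl peptide receptors. In DMSO mice 480 to 483 it stood at 333.9, 301.9, 294.1 and 253.5 CPM, and in ABT-263 mice 476 to 478 at 638.3, 603.8 and 616.9 CPM. The groups did not overlap, and the ABT-263 mice were close to each other, with a coefficient of variation of 2.81% against 11.2% after DMSO. The log2 fold change was 1.07 ± 0.15 (SE, edgeR adjusted p = 0.00635). It was past the threshold whichever mouse was left out, with log2 fold changes of 1.00 to 1.13 and edgeR adjusted p up to 0.0311. Per length, Anxa1 went from a mean of 101.6 ± 11.4 RPKM to 213 ± 5.98 RPKM, the widest difference in mean RPKM among the 10 genes.

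Promoter windows of 300 bases, from 250 before to 50 after the start of the gene, were taken from RefSeq on GRCm38.p6, which gave one for 8 of the 10 members. Those of Anxa1 and Anxa11 are shown as the members with the largest changes that have a window (Anxa3 and Anxa6 had none), and that of Anxa2 as the most abundant member. Capitals mark matches on either strand to any of 5 motifs. These were the letters TATAAA of the box bound by the general factor TFIID, the letters CCAAT of the box bound by NF-Y, and GGGCGG, the GC box of Sp1. The others were TGANTCA, the site of AP-1, and TTCNNNGAA, the site of STAT factors. No matches overlapped each other in these windows. Anxa1 lies at chr19:20390622-20390921 (minus strand), Anxa11 at chr14:25841905-25842204 (plus strand) and Anxa2 at chr9:69453433-69453732 (plus strand), each printed 5′ to 3′ in the direction of the gene:
Anxa1: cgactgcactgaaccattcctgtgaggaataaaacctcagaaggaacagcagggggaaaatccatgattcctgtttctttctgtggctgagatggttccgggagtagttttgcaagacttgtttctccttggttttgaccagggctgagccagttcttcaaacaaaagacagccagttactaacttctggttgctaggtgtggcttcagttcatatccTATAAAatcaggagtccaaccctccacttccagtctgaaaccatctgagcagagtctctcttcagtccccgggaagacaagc
Anxa11: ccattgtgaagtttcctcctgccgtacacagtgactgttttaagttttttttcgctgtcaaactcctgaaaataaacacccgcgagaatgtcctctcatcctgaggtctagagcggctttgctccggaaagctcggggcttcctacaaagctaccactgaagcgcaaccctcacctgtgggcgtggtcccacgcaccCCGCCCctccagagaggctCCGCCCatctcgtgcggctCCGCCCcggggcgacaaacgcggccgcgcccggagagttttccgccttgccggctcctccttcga
Anxa2: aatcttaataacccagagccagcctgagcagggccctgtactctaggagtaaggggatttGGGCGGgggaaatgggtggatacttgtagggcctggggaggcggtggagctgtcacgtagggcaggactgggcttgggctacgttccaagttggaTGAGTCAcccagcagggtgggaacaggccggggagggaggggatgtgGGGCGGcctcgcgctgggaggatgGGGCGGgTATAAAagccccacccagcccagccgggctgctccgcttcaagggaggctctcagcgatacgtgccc
The window of Anxa1 held 1 TATAAA and no match to the other motifs, with 3 CpG dinucleotides and 47.3% GC. The window of Anxa11 held 3 GC boxes and no TATAAA, with 25 CpG dinucleotides and 59.7% GC. The window of Anxa2 held 1 TATAAA, 3 GC boxes and 1 AP-1 match, with 13 CpG dinucleotides and 63.7% GC. Among 32817 windows of this length, 13.6% held TATAAA, 35.6% GGGCGG and 7.81% TGANTCA, and the medians were 7 CpG dinucleotides and 52.7% GC. The windows of Anxa1 and Anxa11 thus had no searched motif in common, and that of Anxa2 held motifs of each. The RefSeq start of Anxa1 lies 273 bases inside the outermost annotated 5′ end.

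Anxa3 (ENSMUSG00000029484, chromosome 5, 96793339 to 96845966, plus strand) is an annexin known from neutrophil granules. It measured 13.7, 14.7, 17.8 and 15.4 CPM in DMSO mice 480 to 483 and 45.9, 26.2 and 38.1 CPM in ABT-263 mice 476 to 478. The groups did not overlap, with ABT-263 mouse 477 nearest to the vehicle. The log2 fold change was 1.26 ± 0.20 (SE, edgeR adjusted p = 0.0078), and the call was kept in each of the 7 fits without 1 mouse (1.07 to 1.48, edgeR adjusted p up to 0.0347). The uncharacterized transcript Gm42603 overlaps 3.07% of its exon bases on the same strand.

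Anxa7 (ENSMUSG00000021814, chromosome 14, 20455260 to 20480133, minus strand), or synexin, promotes the fusion of secretory granules and binds sorcin. It varied least among the DMSO mice of the 10 members, at 179.8, 170.4, 189.9 and 167.3 CPM in DMSO mice 480 to 483 and 253.7, 251.9 and 239.8 CPM in ABT-263 mice 476 to 478. Its coefficients of variation were 5.78% and 3.06%, the groups did not overlap, and its change was small. The log2 fold change was 0.49 ± 0.12 (SE, edgeR adjusted p = 0.0241), and it missed the threshold in the fits without DMSO mouse 481, 482 or 483 or without ABT-263 mouse 476 or 478. In those fits it lay between 0.46 and 0.52, with edgeR adjusted p of 0.0548 to 0.0736. It was also no longer past the threshold once trends on transcript length and GC content were removed (0.34, edgeR adjusted p = 0.0638).

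Anxa4 (ENSMUSG00000029994, chromosome 6, 86736840 to 86793584, minus strand), an annexin of epithelial cells, was at 51.6, 62.4, 71.6 and 63.9 CPM in DMSO mice 480 to 483 and at 82.1, 78.9 and 86.9 CPM in ABT-263 mice 476 to 478. The groups did not overlap, yet the difference did not pass the test, with a log2 fold change of 0.41 ± 0.14 (SE, edgeR adjusted p = 0.0611). The DESeq2 Wald test alone called it, at 0.42 with an adjusted p of 0.0473.

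Anxa5 (ENSMUSG00000027712, chromosome 3, 36448923 to 36475894, minus strand), whose protein covers exposed phosphatidylserine and slows clotting, was at 284, 200.8, 273 and 307 CPM in DMSO mice 480 to 483 and at 307, 314 and 290.1 CPM in ABT-263 mice 476 to 478. DMSO mouse 481 was the lowest and the groups overlapped. The log2 fold change was 0.19 ± 0.17 (SE, edgeR adjusted p = 0.435), from 0.07 to 0.26 with each mouse left out in turn.

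Anxa6 (ENSMUSG00000018340, chromosome 11, 54979108 to 55033445, minus strand), the largest annexin protein, works on endosomes and in the repair of muscle membrane. It stood at 169, 195, 379 and 321 CPM in DMSO mice 480 to 483 and at 421, 237 and 364 CPM in ABT-263 mice 476 to 478. Both groups spanned a wide range and overlapped, and the log2 fold change of 0.36 ± 0.32 (SE, edgeR adjusted p = 0.444) was about the size of its error.

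Anxa2 (ENSMUSG00000032231, chromosome 9, 69453620 to 69491795, plus strand) forms a complex with S100a10 at the plasma membrane that binds plasminogen. Its level was 2003, 1252, 1681 and 1690 CPM in DMSO mice 480 to 483 and 1358, 1871 and 1122 CPM in ABT-263 mice 476 to 478. The groups overlapped widely, with a log2 fold change of -0.19 ± 0.25 (SE, edgeR adjusted p = 0.603) that ran from -0.39 to -0.03 with each mouse left out.

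Anxa8 (ENSMUSG00000021950, chromosome 14, 34085981 to 34100571, plus strand), an annexin of stratified epithelia, was at 623, 591, 465 and 548 CPM in DMSO mice 480 to 483 and at 382, 727 and 525 CPM in ABT-263 mice 476 to 478. The ABT-263 mice lay on both sides of the DMSO mice. The log2 fold change was -0.03 ± 0.23 (SE, edgeR adjusted p = 0.936), and its sign changed with the mouse left out, from -0.27 to 0.18.

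Anxa9 (ENSMUSG00000015702, chromosome 3, 95296096 to 95307176, minus strand) varied most, with coefficients of variation of 44.2% and 40.1%. It was at 79.2, 35.9, 50.4 and 30.9 CPM in DMSO mice 480 to 483 and at 22.3, 53.3 and 46.8 CPM in ABT-263 mice 476 to 478. The groups overlapped, and the log2 fold change of -0.27 ± 0.40 (SE, edgeR adjusted p = 0.651) changed sign without DMSO mouse 480 or ABT-263 mouse 476. The RNA 6330562C20Rik, of the annotation class antisense, shares 4.53% of its exon bases on the same strand.

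**Figure D3:**
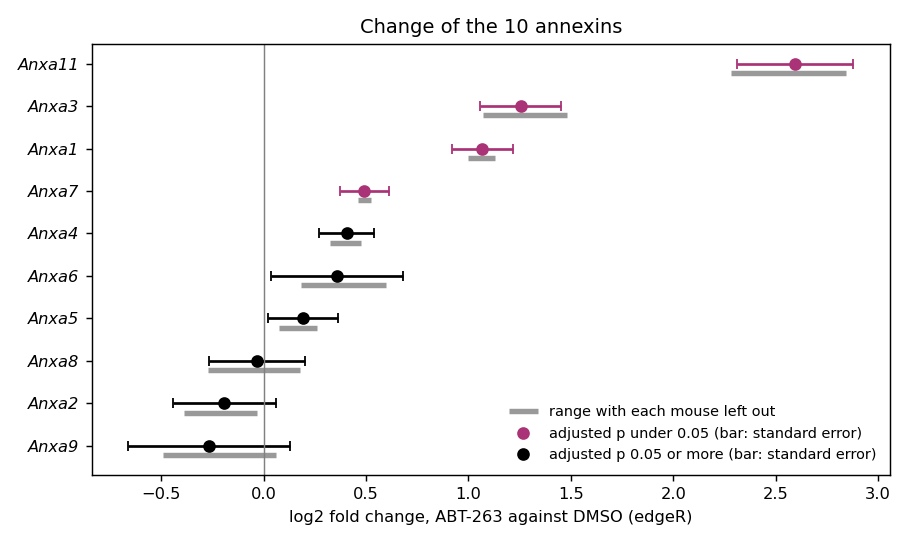
Log2 fold change of each annexin, ABT-263 against DMSO, with its standard error (edgeR, 3 against 4 mice). Purple points have an adjusted p under 0.05, black points do not, and the grey bar under each point spans the values with each mouse left out in turn; for Anxa8 and Anxa9 alone the grey bar crosses 0.

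Anxa2, Anxa8 and Anxa9 were highest in the same pair of mice. The mice with the highest sums of basal and of suprabasal keratinocyte markers were DMSO mouse 480 and ABT-263 mouse 477, with 29993 and 34817 CPM for the basal list against 13320 to 17691 CPM in the other 5 mice. These mice held the top places of the 7 for Anxa2, Anxa8 and Anxa9. Each was the lowest of its group for Anxa3, Anxa4, Anxa6 and Anxa11. The part of the keratinocyte share in these levels was not tested.

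Markers of other cell types also differed between the treatments. All 5 macrophage markers rose, with a summed level of 173 to 450.0 CPM after DMSO and 627 to 2227 CPM after ABT-263. All 5 endothelial markers rose, with sums of 100.5 to 209 CPM after DMSO and 317 to 417 CPM after ABT-263. Of 5 neutrophil markers 3 rose, with sums of 99.6 to 1820 CPM and 5097 to 8304 CPM. Of 5 fibroblast markers 3 rose as well, with sums of 1867 to 2589 CPM and 3426 to 4851 CPM. The groups did not overlap in any of these sums, and no marker of these lists was at 0 in every mouse. Each sum is weighted to the most abundant genes of its list, so it need not follow every marker in it. The keratinocyte sums overlapped between groups, at 15527 to 29993 CPM against 13320 to 34817 CPM for the basal list and 11049 to 39052 CPM against 6473 to 25320 CPM for the suprabasal list. Skeletal muscle markers overlapped too, and 2 of 6 fell. Of 5 basal keratinocyte markers 1 rose, and of 5 suprabasal ones 0 were called. Of all genes tested, 12.4% rose and 11.7% fell, and 37.1% had groups apart. The part of these cell types in the change of Anxa1, Anxa3, Anxa7 and Anxa11 was not tested.

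**Figure D4:**
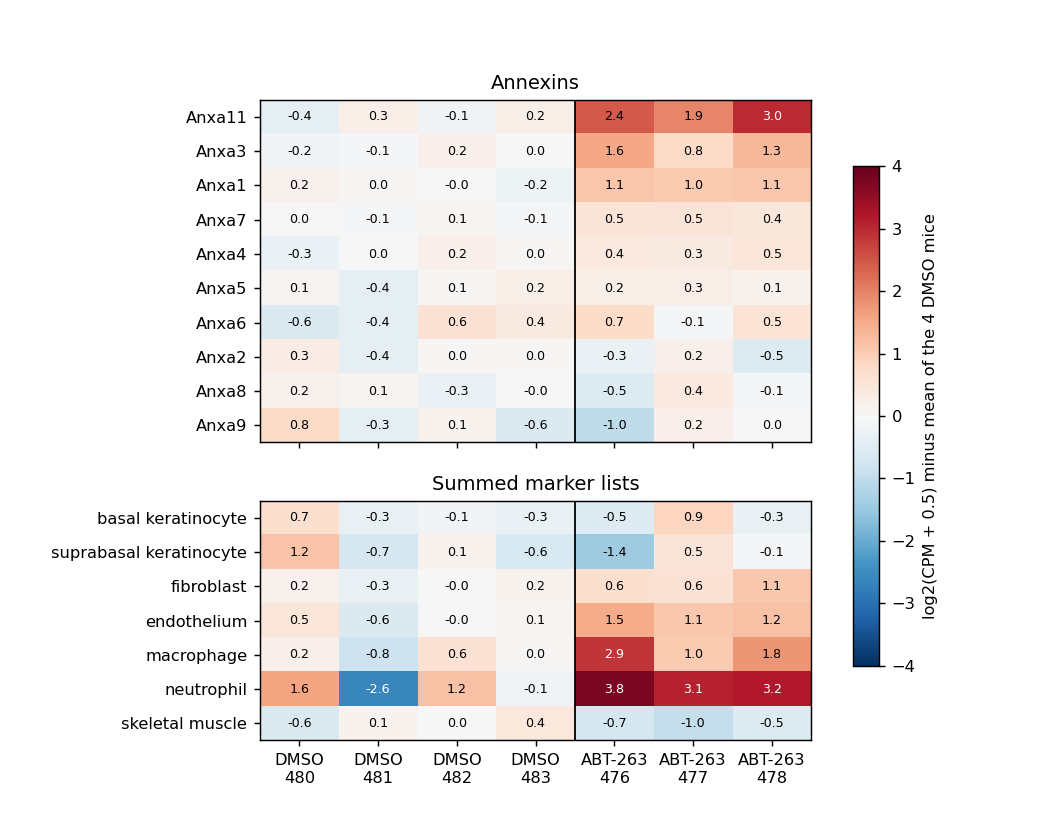
Each annexin (upper panel) and the summed level of 7 marker lists (lower panel) in each mouse, as log2(CPM + 0.5) minus the mean of the 4 DMSO mice. Red is above and blue below the vehicle mean. Anxa11, Anxa3, Anxa1, Anxa7 and Anxa4 are higher in all 3 ABT-263 mice than in any DMSO mouse. So are the fibroblast, endothelium, macrophage and neutrophil lists.

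The binding partners of the annexins did not move as a block. Of 10 genes listed as annexin partners and receptors, 9 were tested, 3 rose and 1 fell, and the median log2 fold change was -0.13. Of all genes tested, 24.2% were called, 12.4% as higher and 11.7% as lower. Pdcd6, the calcium sensor that binds Anxa11 and Anxa7, was at 43.6, 50.7, 47.5 and 40.7 CPM in the DMSO mice and 80.7, 70.2 and 66.7 CPM in the ABT-263 mice, in the same order of mice. The groups did not overlap, and its log2 fold change was 0.67 ± 0.13 (SE, edgeR adjusted p = 0.0122), past the threshold whichever mouse was left out. Sri, or sorcin, the partner of Anxa7, changed by 0.59 ± 0.14 on the log2 scale (edgeR adjusted p = 0.0238), a call kept in 2 of the 7 fits without 1 mouse. S100a4, which binds Anxa2, fell by 0.88 on the log2 scale (SE 0.20, edgeR adjusted p = 0.0199), and did not pass without ABT-263 mouse 476 or 478.

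The S100 proteins that pair with the annexins gave no call otherwise. S100a10, the partner of Anxa2, stood at 307 to 390 CPM after DMSO and 284 to 336 CPM after ABT-263 (log2 fold change -0.16 ± 0.15, edgeR adjusted p = 0.435). S100a11, the partner of Anxa1, stood at 233 to 435 CPM and 201 to 340 CPM (-0.24 ± 0.26, edgeR adjusted p = 0.516), and S100a6 at 1058 to 1416 CPM and 569.9 to 1092 CPM (-0.61 ± 0.25, edgeR adjusted p = 0.107). The groups overlapped for all 3 genes.

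The balance of each annexin with its S100 partner was compared within mice, as a ratio of CPM. For Anxa1 to S100a11 the ratio was 0.767, 1.30, 0.833 and 0.776 in DMSO mice 480 to 483 and 2.03, 1.78 and 3.07 in ABT-263 mice 476 to 478. Every ABT-263 mouse had the higher ratio, with a log2 difference of 1.32. A two-sided exact permutation test gave p = 0.0286, the smallest that 4 against 3 mice allow, and 0.0571 after adjustment over the 2 ratios. With the other ratio far from the threshold, no difference could have passed after adjustment. The adjusted test therefore cannot decide on this ratio. For Anxa2 to S100a10 the ratio was 5.77, 4.08, 4.75 and 4.34 in the DMSO mice and 4.04, 5.94 and 3.95 in the ABT-263 mice. The groups overlapped and the log2 difference was -0.04 (exact permutation p = 0.771).

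The formyl peptide receptors, through which Anxa1 acts on myeloid cells, were at low counts in vehicle-treated skin. Fpr1 had 0, 5, 1 and 1 counts in DMSO mice 480 to 483 and 813, 62 and 51 in ABT-263 mice 476 to 478, without overlap. It rose (edgeR adjusted p = 0.0199), although not in the fits without DMSO mouse 482 or 483, and with so few vehicle counts its fold change is not given. Fpr2 had 74, 10, 26 and 5 counts and 1622, 170 and 116 counts in the same order, and did not pass (edgeR adjusted p = 0.0567). Mouse 476 was by far the highest for both receptors. Fpr3 had 0 counts in every mouse.

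Among 11 genes of membrane repair, 4 rose and none fell, where 12.4% of all genes tested rose and 11.7% fell, and the median log2 fold change was -0.01. By the same test 5 genes had an unadjusted p under 0.05 as higher and 0 as lower. The DESeq2 Wald test called 4 higher and 0 lower, where it called 13.6% of all its genes higher. Myof, or myoferlin, a ferlin that takes part in vesicle fusion at the plasma membrane, was at 19.9 to 32.0 CPM after DMSO and 63.5 to 72.8 CPM after ABT-263 (log2 fold change 1.40 ± 0.17, edgeR adjusted p = 0.00584). Capn2, the large subunit of m-calpain, was at 59.5 to 88.8 CPM and 169 to 189 CPM (1.17 ± 0.16, edgeR adjusted p = 0.00637). Vps4b, an ATPase that takes ESCRT filaments apart, was at 40.6 to 50.5 CPM and 65.0 to 71.8 CPM (0.59 ± 0.12, edgeR adjusted p = 0.0139), and the fourth gene was Pdcd6ip. None of these groups overlapped, and the calls held whichever mouse was left out. Dysf, the muscle ferlin and relative of Myof, had a log2 fold change of -0.15 ± 0.14 (edgeR adjusted p = 0.456).

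Among 15 genes of phosphatidylserine exposure and of the engulfment of cells that show it, 5 rose and none fell, against the same 12.4% and 11.7% of all genes, and the median log2 fold change was 0.41. Without adjustment 8 had p under 0.05 as higher and 1 as lower. The DESeq2 Wald test called 6 higher and 0 lower, against 13.6% of all its genes called higher. Atp11a, a flippase that returns phosphatidylserine to the inner face, was at 16.8 to 19.0 CPM after DMSO and 27.2 to 49.6 CPM after ABT-263 (log2 fold change 1.14 ± 0.20, edgeR adjusted p = 0.00933). Pros1, or protein S, which bridges exposed phosphatidylserine to the receptor Mertk, was at 35.1 to 46.3 CPM after DMSO and 70.7 to 107 CPM after ABT-263 (1.05 ± 0.17, edgeR adjusted p = 0.00819). The groups did not overlap for either gene. The scramblase family gene Plscr1 and the receptor Axl were also called higher, Axl not in the fits without DMSO mouse 482 or ABT-263 mouse 476 or 478.

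Among 6 genes of the plasminogen system at the cell surface, in which the Anxa2 and S100a10 complex takes part, 4 rose and none fell, against 12.4% and 11.7% of all genes, and the median log2 fold change was 1.95. Without adjustment 5 had p under 0.05 as higher and 0 as lower. The DESeq2 Wald test called 4 higher and 0 lower, against 13.6% of all its genes called higher. Plat, tissue plasminogen activator, was at 9.27 to 12.3 CPM after DMSO and 20.3 to 33.1 CPM after ABT-263 (1.20 ± 0.20, edgeR adjusted p = 0.00877). Serpinb2, an inhibitor of plasminogen activators, was at 13.8 to 17.1 CPM and 45.5 to 180 CPM (2.71 ± 0.44, edgeR adjusted p = 0.00886), and Plau, urokinase, at 34.8 to 53.1 CPM and 64.6 to 85.7 CPM (0.81 ± 0.18, edgeR adjusted p = 0.0171). The fourth, the urokinase receptor Plaur, was past the threshold in 1 of the 7 fits without 1 mouse. Genes of this system thus rose while Anxa2 and S100a10 gave no call, and the difference between them was not tested.

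**Figure D5:**
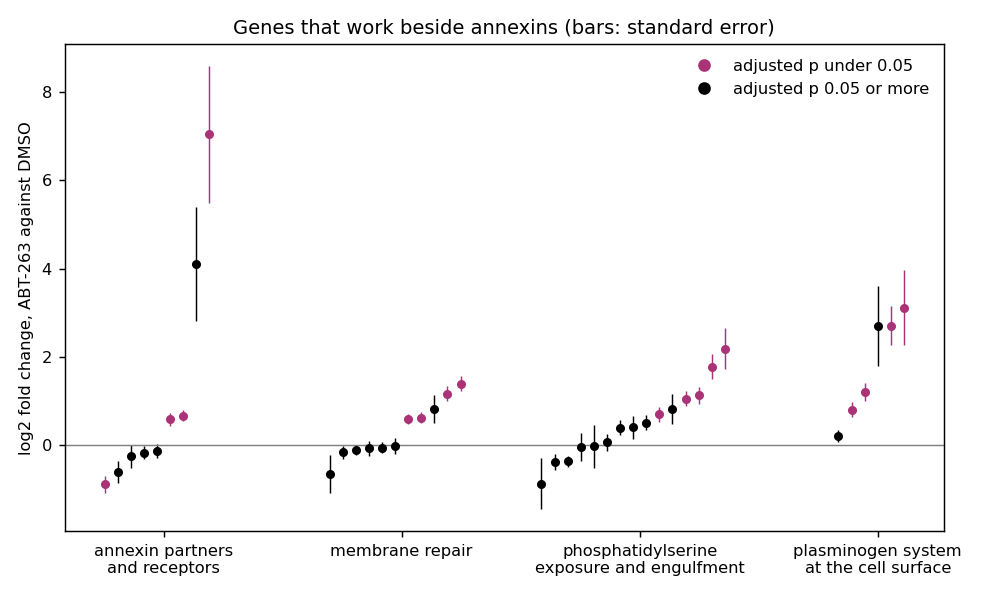
Log2 fold change, ABT-263 against DMSO, with its standard error for each tested gene of the 4 lists set beside the annexins (edgeR, 3 against 4 mice). Purple points have an adjusted p under 0.05; the topmost point is Fpr1, whose value rests on 0 to 5 counts per vehicle-treated mouse, and the only purple point under 0 is S100a4.

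The genes whose pattern over the 7 mice was closest to Anxa1, by Pearson correlation of log2(CPM + 0.5), were the pseudogene Dynlt1-ps1 (0.996), Rab35 (0.994) and Kif9 (0.994). For Anxa11 they were Ramac (0.996), Atg9a (0.996) and the pseudogene Ybx1-ps2 (0.995). These are the closest of 15583 genes compared, of which 265 were above 0.95 for Anxa1 and 323 for Anxa11. The 7 points share the split by treatment, in which every ABT-263 library was also the larger. Reads of a processed pseudogene can come from its parent gene, so its level is uncertain.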

How the data were processed

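RNA of dorsal skin from 7 mice was sequenced. Per the labels and the study's methods, the authors aligned reads to mm10 with STAR 2.7.9a and deposited raw counts of uniquely aligned, same-strand read pairs per Ensembl gene (featureCounts of Subread 1.6.2), mitochondrial genes left out. They also deposited variance-stabilized values on a log2 scale from DESeq2 1.23.10, used here only as an alternative. Counts were tested with edgeR 4.0.16 in R 4.3.3 (TMM, filterByExpr, robust quasi-likelihood, two-sided, Benjamini-Hochberg over 17959 genes, threshold 0.05), without covariates, since the labels name no batch. Separate mice are the replicates.

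Symbols, positions and exon lengths came from GENCODE M21 on GRCm38 (mm10), which held 55190 of 55450 identifiers and is another release than the one the authors counted with. Copies were searched with blastn 2.17.0 among its annotated transcripts only, not in the genome sequence. Alternatives were the DESeq2 1.42.0 Wald test, its size factors, 2 filters on low counts, thinning to the smallest library, removal of trends on length and GC content (mgcv 1.9.3; 17 genes without values), limma 3.58.1 on the log2 values deposited, and leaving out each mouse. Exon length was varied after seeing the data. The edgeR script was tested on simulated data.

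The annexins and lists were chosen with earlier results of these data known. Named genes are all members, their partners, and from each list at most the 3 calls per direction with the smallest p. Pdcd6ip, Plscr1, Axl, Plaur, Ano6, Fpr3 and Dysf lie outside that rule and were named after their values were seen, and 1 gene that the rule names is not reported here. For the genes alike in pattern, a mean of at least 1 CPM was required. No column of fold changes or p-values by the authors was used.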

Additional observations from a re-analysis of the deposited data

Results flagged for a closer look

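Of 13 measures examined in the 4 DMSO mice (the levels of the 10 annexins, their sum and the ratios of Anxa1 and Anxa2 to their S100 partners), 1 had a mouse far from the others, and chance flags about 5% of such groups. The log2 ratio of Anxa1 to S100a11 was 0.37 in DMSO mouse 481 and -0.38 to -0.26 in the other DMSO mice, a gap of 0.843 of the whole range against a limit of 0.829. The ratio in this mouse was still below that of every ABT-263 mouse. Mouse 481 had the lowest S100a11 level of the vehicle group (233 CPM), and its Anxa1 level (301.9 CPM) lay within the range of the others.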

How the results depend on the processing

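Under the alternatives other than leaving out a mouse, 3 to 5 annexins rose and 0 fell, with 3 to 4 and 0 when each mouse was left out. Among all genes tested, 6.11% to 13.6% were called higher under the former and 4.8% to 12.3% with a mouse left out. For the DESeq2 size factors in edgeR no share over all genes was taken. Anxa1, Anxa3 and Anxa11 stayed past the threshold under every alternative run, with log2 fold changes of 0.94 to 1.13, 1.07 to 1.48 and 2.28 to 2.84. Anxa7 kept its call in 6 of 7 other alternatives and in 2 of 7 fits without 1 mouse, and Anxa4 gained one only with the DESeq2 Wald test. Testing every gene with a count turned the sign of Anxa8 (0.00359, log2), and leaving out each mouse gave ranges of -0.27 to 0.18 for Anxa8 and -0.49 to 0.06 for Anxa9. The log2 ratio of Anxa2 to S100a10 ranged from -0.23 to 0.06 and turned positive without DMSO mouse 480 (0.058), ABT-263 mouse 476 (0.0464) or ABT-263 mouse 478 (0.062). That of Anxa1 to S100a11 ranged from 1.09 to 1.49, with exact permutation p of 0.0667 to 0.1, the smallest that 4 against 2 and 3 against 3 mice allow, so that none of them could pass. With each mouse left out, 1 to 3 partners rose (1 without DMSO mouse 482 or 483) and 0 to 1 fell (0 without ABT-263 mouse 476 or 478), and 0 to 1 genes of phosphatidylserine exposure fell (Ano6, without DMSO mouse 481). The cause was not tested. Over all genes, between 1735 and 4169 were called without 1 mouse, against 4342 with all 7. These were 9.39% to 23.5% of the genes tested, against 24.2%. With the longest transcript as length, 6 of 10 RPKM values after DMSO moved by more than their SD.

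No paired analysis was possible because the mouse numbers are not shared between the groups. Among the annexins low counts limit Anxa11 most, and Fpr1, Fpr2 and Plscr1 had fewer counts still in the DMSO mice. Depth differed between the groups throughout.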
